A study of Mus musculus with 9 samples.

Results

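The Kruppel-like factors (KLFs) are DNA-binding proteins that carry zinc fingers at their C-terminal end and bind GC-rich and CACCC-type promoter elements, some as activators and some as repressors. The 10 genes described here, Klf2, Klf3, Klf4, Klf6, Klf7, Klf9, Klf10, Klf11, Klf13 and Klf15, were chosen by symbol as family members known to respond to steroids or stress. All 10 were found in both deposited tables, out of 14971 protein-coding genes listed in either table and 14300 in both. Several KLF genes respond rapidly to glucocorticoids, to growth factors or to the circadian clock, and in skeletal muscle KLF15 is known for controlling amino acid breakdown and lipid use.

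RNA was sequenced from whole tibialis anterior, a fast muscle of the lower leg, of male C57BL/6J mice. The 3 groups held 3 libraries each, labelled as biological replicates: control mice (columns named sham in the tables), mice whose testes had been removed (orchiectomy, ORX), and ORX mice that received dihydrotestosterone (DHT), a potent androgen. Samples were taken 4 weeks after treatment; the age of the mice and the dose and route of DHT are not given in the sources used here. Whole muscle mixes fibres with vascular, connective and nerve cells, so fewer cells of a type and less RNA per cell cannot be told apart.

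The libraries held 1340209 to 1682235 reads over the listed genes. Muscle identity was clear from creatine kinase (Ckm), at 16100 normalised counts or more in every library. Control replicate 1 stood apart on the first principal component, with a score of -47.2 against 0.716 to 10.6 for the other 8 libraries. Some results that rest on that replicate are given with and without it. Androgen-sensitive Fkbp5, for a steroid receptor cochaperone, separated the ORX libraries (22.2 to 42.2 normalised counts) from the ORX+DHT libraries (102 to 111).

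A normalised count is a read count divided by a scaling factor of its library, here 1 factor for each of the 9 libraries. Klf9 was the most abundant member by this measure, with a mean of 389 over the 9 libraries, and Klf11 the least, with 13.2. Divided by exonic length, Klf9 stood at 80.85 normalised counts per kb of exon, against 18.7 for Klf6, 18.3 for Klf15, 17.1 for Klf2, 12.2 for Klf10, 12.1 for Klf4 and 11.5 for Klf13. Klf7, Klf3 and Klf11 formed the lowest set at 4.65, 3.24 and 3.04 per kb.

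Only 2 steps of this order exceeded the spread of the 9 libraries. Klf9 was above Klf6 in 9 of 9 libraries with no overlap of their ranges, and so was Klf13 above Klf7. Neighbours in the order from Klf6 down to Klf13 overlapped, as did Klf7 with Klf3 and Klf3 with Klf11; for example, Klf6 exceeded Klf15 in 5 of 9 libraries. The length used was the union of all annotated exons (11243 bases for Klf3, 1847 for Klf2), which lowers the value of a gene with long, little-used exons. All 10 members had a mean of at least 10 normalised counts and so entered the main test of each comparison; some alternative fits, such as a minimum mean of 50, tested fewer.

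**Figure D1:**
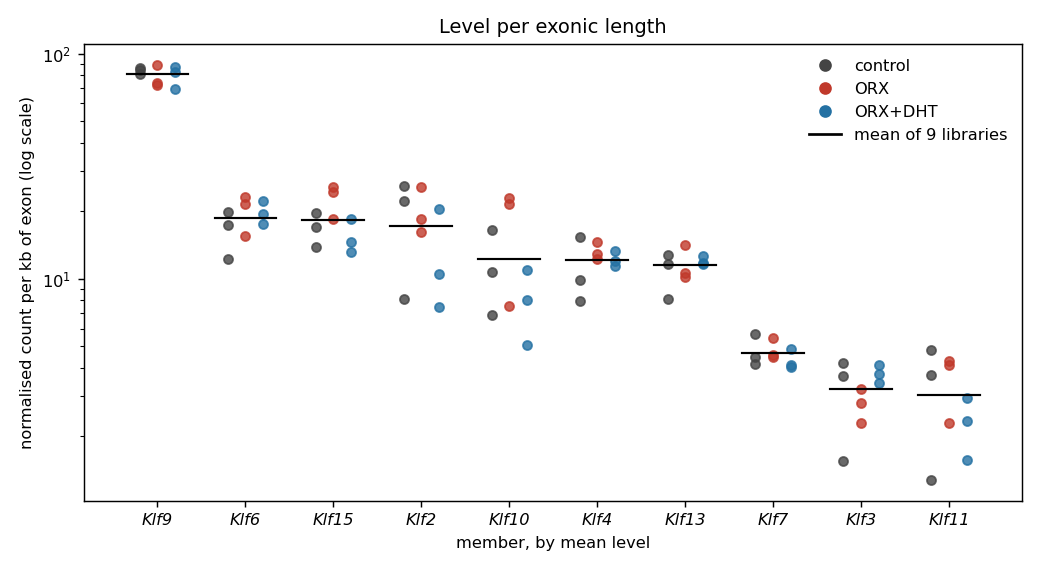
Normalised count per kb of exon (log scale) for each of the 10 genes, ordered by mean; each point is a library, coloured by group, and the bar is the mean of 9 libraries. Klf9 averages 80.85, and the means of the 6 genes from Klf6 to Klf13 lie between 11.5 and 18.7.

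The promoters of 9 members were read from RefSeq (GRCm38.p6, 250 bases before to 50 after the start); Klf10 was not matched. They were GC-rich, with a median of 72% G or C against 52.7% over all 32851 RefSeq mouse promoters of the same length. The E-box CACGTG, the element bound by clock and related factors, occurred in 4 of the 9 (Klf4, Klf6, Klf11 and Klf15), against 7.15% of all promoters. Klf15 held 3 copies, beginning 228, 172 and 3 bases before its start. The first 250 bases of the Klf15 promoter are shown because this gene was the member nearest to the threshold in the DHT comparison; capitals mark the complete E-boxes. The stretch is chr6:90462326-90462575 on the plus strand, directly upstream of the annotated start.
Klf15: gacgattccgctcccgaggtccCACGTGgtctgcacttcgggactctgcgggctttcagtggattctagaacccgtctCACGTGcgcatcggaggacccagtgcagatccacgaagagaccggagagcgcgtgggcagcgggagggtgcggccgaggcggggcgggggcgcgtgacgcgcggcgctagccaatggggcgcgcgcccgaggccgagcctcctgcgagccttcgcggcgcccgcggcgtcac
The remaining E-boxes are shown in 30-base windows, with the motif in capitals: Klf15 at chr6:90462561-90462590 (plus strand, across the start), Klf4 at chr4:55532640-55532669 (minus), Klf11 at chr12:24651145-24651174 (plus) and Klf6 at chr13:5861434-5861463 (plus).
Klf15 start: cgcccgcggcgtCACGTGagcggccggaga
Klf4: cgcccccgccccCACGTGcgcggagtttgt
Klf11: cccggaccaaaaCACGTGccgccgcccgcc
Klf6: ctccaagctggtCACGTGgggggagaaggg
For comparison, the 250 bases upstream of Klf9 (chr19:23140976-23141225, plus strand), the most abundant member, held no E-box and 1 CACCC box, which is in capitals.
Klf9: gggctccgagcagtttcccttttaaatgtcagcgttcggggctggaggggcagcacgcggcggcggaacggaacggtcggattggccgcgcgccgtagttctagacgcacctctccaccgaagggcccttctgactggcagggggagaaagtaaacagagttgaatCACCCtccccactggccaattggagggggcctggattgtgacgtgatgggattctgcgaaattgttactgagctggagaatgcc

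KLF proteins themselves bind GC and CACCC boxes. The GC box GGGCGG was present on either strand in 8 of the 9 promoters (all but Klf9), against 35.7% of all promoters, and CACCC in 6 (Klf2, Klf3, Klf7, Klf9, Klf13 and Klf15), against 57.5%. The half-site AGAACA, shared by androgen and glucocorticoid receptor elements, was found in 0 of 9, against 19% of all promoters, and its palindrome with a spacer of NNN in 0 of 9, against 0.00913%. These letters were counted on both strands, motifs may overlap, and the members' high GC content was not adjusted for. A match describes the letters only, and distal elements were not examined.

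The first comparison asked which members differ once orchiectomised mice receive DHT, and set ORX+DHT libraries against ORX libraries. None of the 10 members passed the test (0 of 10 at a Benjamini-Hochberg, BH, adjusted p under 0.05 by limma), against 4.08% of the 8770 genes tested. At an unadjusted p under 0.05 there were 4, Klf15, Klf10, Klf2 and Klf3, against 14.3% of all genes. The first 3 had lower means in ORX+DHT and Klf3 a higher one. On the deposited scale the groups did not overlap for 2 members, against 19.5% of all genes. These were Klf15, lower in ORX+DHT as were 9.13% of all genes, and Klf3, higher as were 10.4%. The median log2 fold change was -0.13 over the members (7 below 0, 3 above) and 0.0062 over all genes.

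Klf15 (ENSMUSG00000030087, chr6:90462576-90475238) is induced by glucocorticoids in muscle and promotes branched-chain amino acid breakdown. It stood at 67.7, 51.2 and 71.1 normalised counts in ORX replicates 1, 2 and 3 and at 40.5, 51.2 and 36.6 in ORX+DHT. ORX replicates 1 and 3 were the 2 highest of the 9 libraries, and the second replicates of both groups were nearly equal. Their order depended on the scaling: the ORX library was marginally higher in the deposited table and marginally lower after joint scaling, so the absence of overlap rests on that pair. Controls stood at 47.4, 38.7 and 54.6, overlapping both groups. The log2 fold change was -0.56 (SE 0.18, 95% interval -0.93 to -0.18, BH-adjusted limma p 0.106). It stayed below 0 in all 16 alternative fits, from -0.70 to -0.45, with 0 of them called (adjusted p 0.0569 to 0.362).

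Klf10 (ENSMUSG00000037465, chr15:38291463-38300706), also known as the TGF-beta-inducible early gene, encodes a repressor that acts downstream of TGF-beta signalling. ORX libraries stood at 89.3, 95.5 and 31.4 normalised counts, ORX+DHT libraries at 21.3, 45.4 and 33.6, and controls at 68.7, 28.7 and 44.7. ORX replicates 1 and 2 were the 2 highest of all 9 libraries, whereas ORX replicate 3 lay among the ORX+DHT values. The log2 fold change was the largest of the 10 in size, at -0.99 (SE 0.33, 95% interval -1.69 to -0.30, BH-adjusted limma p 0.12). Without ORX replicate 3 it was -1.51 and was called (BH-adjusted limma p 0.000413), and without ORX+DHT replicate 1 it was -0.71 and was not (0.427). Of 16 alternative fits, 14 did not call Klf10, with an adjusted p of up to 0.542.

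The ORX replicates of Klf10 held 91, 112 and 38 reads. Their variance was 20.7 times what counting error alone gives (chi-square per degree of freedom), the highest of the 30 combinations of member and group. A pair of clock genes, picked after their values were seen, had their highest or lowest ORX value in replicate 3. Dbp, a clock output gene, stood at 45.2, 37.5 and 93.5 in the ORX replicates, and Arntl, its activator, at 32.4, 48.6 and 19.9. Another clock gene, Cry1, had its middle ORX value in replicate 3, at 24.5, 37.5 and 31.4. The part of clock genes in the Klf10 difference was not tested.

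Klf2 (ENSMUSG00000055148, chr8:72319033-72321656) is best known as the flow-induced factor of endothelial cells. Its ORX libraries stood at 47.1, 34.1 and 29.8 normalised counts and its ORX+DHT libraries at 37.5, 19.3 and 13.8, with controls at 15, 47.5 and 40.7. ORX+DHT replicate 1 lay inside the ORX range and the other 2 below it. The log2 fold change was -0.72 (SE 0.29, 95% interval -1.34 to -0.11, BH-adjusted limma p 0.237). Without ORX+DHT replicate 1 it was -1.11 and was called (BH-adjusted limma p 0.0317), and without ORX+DHT replicate 3 it was -0.42 and was not (0.568). Of 15 alternative fits that tested Klf2, 13 did not call it, with an adjusted p of up to 0.697.

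Endothelial markers were measured beside Klf2. Their summed level over 8 genes, none of them at 0 in any library, was 1045 to 1168 normalised counts in ORX and 1205 to 1302 in ORX+DHT, and 7 of 8 had log2 fold changes above 0, with 0 called. The part of endothelial cells in the Klf2 difference was not tested. Of 8 endothelial genes linked to KLF2 and KLF4, 6 were tested and 0 were called. Nos3, Thbd and S1pr1, known KLF2 targets, had log2 fold changes of -0.17, -0.12 and -0.18 (BH-adjusted limma p 0.781, 0.82 and 0.703). Of the 6, 4 lay below 0 and 2 above, Map2k5 and Mef2c at 0.17 and 0.16.

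Klf3 (ENSMUSG00000029178, chr5:64803388-64832901) encodes a repressor that recruits the corepressor CtBP. ORX libraries stood at 31.4, 25.6 and 36.4 normalised counts and ORX+DHT libraries at 38.5, 46.4 and 42.5. All 3 ORX+DHT libraries were above all 3 ORX libraries, by a narrow gap. The log2 fold change was 0.45 (SE 0.19, 95% interval 0.048 to 0.85, BH-adjusted limma p 0.272), and it remained above 0 in all 15 alternative fits that tested the gene. Controls 2 and 3, at 47.5 and 41.7, were like ORX+DHT, but control 1 stood at 17.5. An annotated gene, Gm20033, overlaps Klf3 exons on the opposite strand, and the strand setting of the counting is not given in the sources used here.

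**Figure D2:**
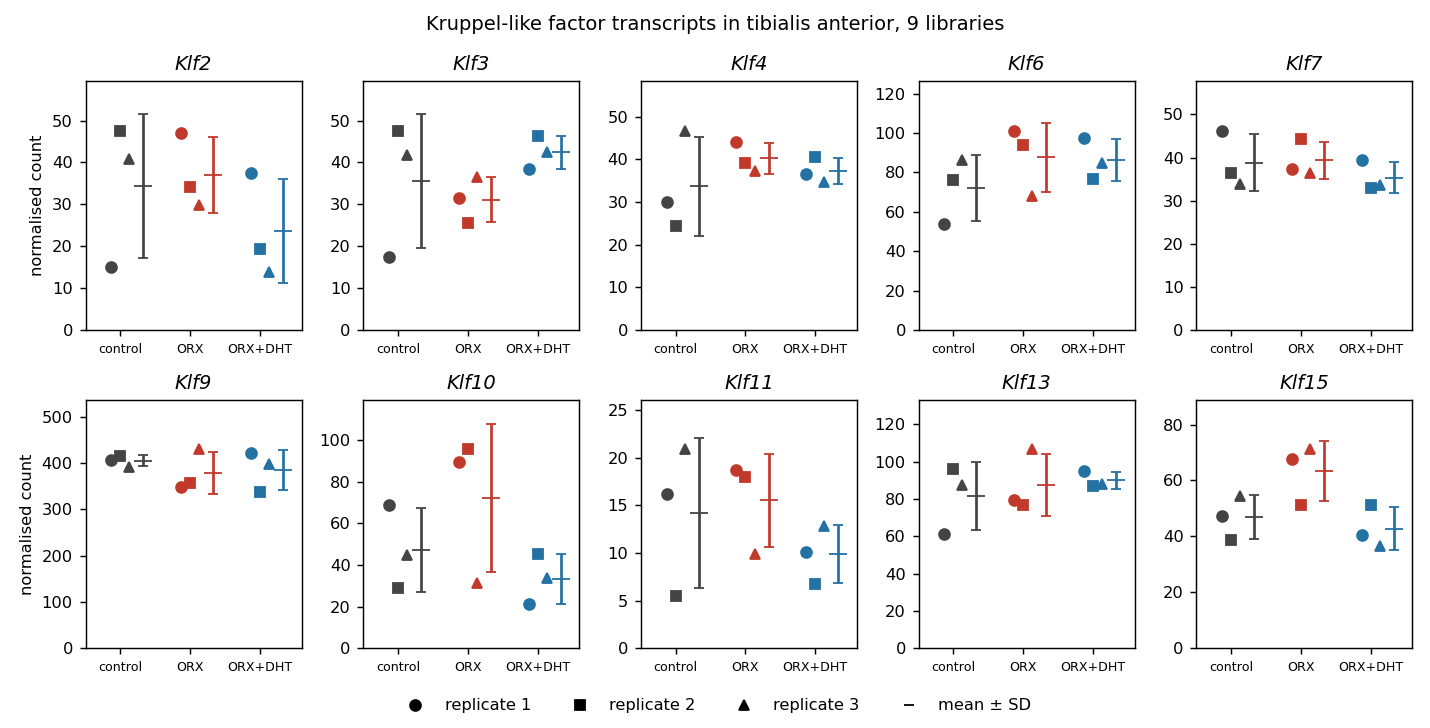
Normalised counts (axes start at 0) of the 10 genes in control, ORX and ORX+DHT libraries; the marker shape gives the replicate, and the bar with whiskers the mean ± SD of 3 libraries. For Klf10 the ORX libraries split into 2 near 90 and 1 at 31.4, and control replicate 1 is lowest of its group for Klf2, Klf3, Klf6 and Klf13.

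The other 6 members did not approach the threshold in this comparison. Klf9 (ENSMUSG00000033863, chr19:23141226-23168134), a glucocorticoid- and thyroid hormone-responsive repressor, was measured most precisely. It stood at 348.5, 356.5 and 429.3 normalised counts in ORX and 420.5, 336.4 and 398.2 in ORX+DHT, so the groups overlapped. Its log2 fold change was 0.027 (95% interval -0.20 to 0.25, BH-adjusted limma p 0.95).

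Klf13, a close relative of Klf9, and Klf6, a factor induced by tissue injury, had log2 fold changes of 0.054 and -0.0089, with intervals from -0.25 to 0.35 and from -0.34 to 0.32. Klf4, active in vascular and stem cells, and Klf7, known from neurons, had -0.11 and -0.15. Klf11, a relative of Klf10, had -0.59 with a wide interval of -1.30 to 0.12, and its libraries held only 5 to 21 reads each. Over the 9 libraries Klf13 (chr7:63886351-63938915) ranged from 61.2 to 107 normalised counts, Klf6 (chr13:5861482-5870394) from 53.7 to 101 and Klf4 (chr4:55527143-55532466) from 24.3 to 46.7. Klf7 (chr1:64029447-64122282) ranged only from 32.9 to 46.2, and Klf11 (chr12:24651274-24662789) from 5.53 to 20.9. Klf13, Klf6 and Klf4 had their lowest value in a control library, as did Klf11, and Klf7 in an ORX+DHT library. Exons of Klf7 overlap those of Gm13748 and Gm26649 on the opposite strand. The BH-adjusted limma p of these 5 was 0.457 to 0.989, and the groups overlapped for each of them.

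To ask which members differ after orchiectomy alone, ORX was compared with control muscle. None of the 10 members was called (0 of 10, limma) against 0.0579% of 8631 genes, and 0 had an unadjusted p under 0.05 against 7.21% of all genes. Log2 fold changes were above 0 for 8 members, with a median of 0.23 against -0.0077 over all genes. Without control replicate 1, 6 of 10 were above 0, still with 0 called. In that fit 3 members had an unadjusted p under 0.05, against 916 of 8609 genes. The groups overlapped for all 10, where 14.3% of all genes had groups that did not overlap.

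Klf10 had the highest log2 fold change, 0.53 (SE 0.40, 95% interval -0.36 to 1.41, BH-adjusted limma p 0.794). It ran from 0.22 without control replicate 2 to 1.03 without ORX replicate 3, and was 0.83 without control replicate 1, called in none of these. Klf15 followed at 0.42 (SE 0.21, 95% interval -0.031 to 0.88, BH-adjusted limma p 0.695), and was the member with the smallest p. Klf15 means were 46.9 ± 7.98 normalised counts in control and 63.4 ± 10.7 in ORX (SD, n = 3). Klf4 and Klf6 had values of 0.30 and 0.28, and the other 6 members lay between -0.10 and 0.24. With a library left out, Klf4 ran from 0.098 to 0.55 and Klf6 from 0.087 to 0.45. Klf9 was the lowest, at 405 ± 12.4 and 378 ± 44.5 normalised counts.

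To ask whether DHT-treated ORX muscle differed from control muscle, the 2 groups were compared after joint scaling. Again 0 of 10 members were called (limma), against 0.0349% of 8595 genes, and 0 had an unadjusted p under 0.05, against 6.48%. Groups overlapped for all 10 members, while they did not for 14% of all genes. Log2 fold changes ran from -0.49 for Klf2 to 0.36 for Klf3, both with a BH-adjusted limma p of 0.804. Without control replicate 1 these were -0.99 (BH-adjusted limma p 0.275) and -0.071 (0.946). In that fit 1 member had an unadjusted p under 0.05, against 848 of 8595 genes. Without control replicate 2, 2 members did, against 712 of 8595 genes. With any 1 library left out the value of Klf2 ran from -0.99 to -0.19, with 0 members called. Klf15 was at -0.13 (95% interval -0.60 to 0.34, BH-adjusted limma p 0.889). Both comparisons with control use the same control libraries, and both comparisons with ORX the same ORX libraries, so the signs of a member across them are not independent.

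**Figure D3:**
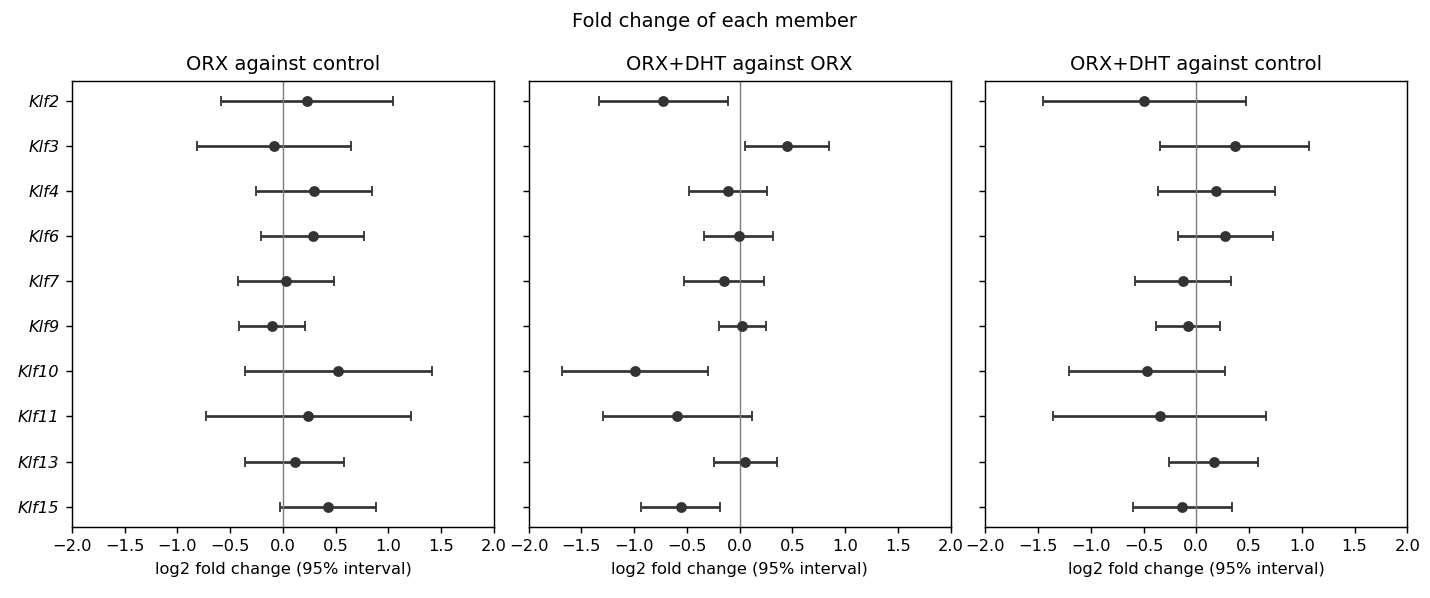
Log2 fold change (value + 1 scale) of each of the 10 genes in the 3 comparisons, with 95% limma intervals before adjustment for multiple testing. The intervals of Klf2, Klf3, Klf10 and Klf15 leave out 0 in ORX+DHT against ORX; in the other 2 comparisons every interval includes 0.

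Replicate spread differed widely among members. The CV within a group was 3.06% to 11.8% for Klf9 but 36.1% to 49% for Klf10 and 30.7% to 55.4% for Klf11. These CVs include counting error, and Klf9 held 1096 to 1292 reads per group against 30 to 52 for Klf11. The chi-square per degree of freedom in control, ORX and ORX+DHT was 0.36, 6.05 and 5.02 for Klf9. It was 4.03, 1.78 and 0.96 for Klf11, so in the ORX and ORX+DHT groups Klf9 exceeded counting error by more than Klf11 did. In the control group, replicate 1 held the lowest value of Klf2, Klf3, Klf6 and Klf13 and the highest of Klf7 and Klf10. Klf2 stood at 15, 47.5 and 40.7 in the 3 controls, a CV of 49.9%. In 9 of the 30 combinations of member and group the chi-square per degree of freedom was below 1, the average that counting error gives. Klf7 was below 1 in all 3 groups.

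**Figure D4:**
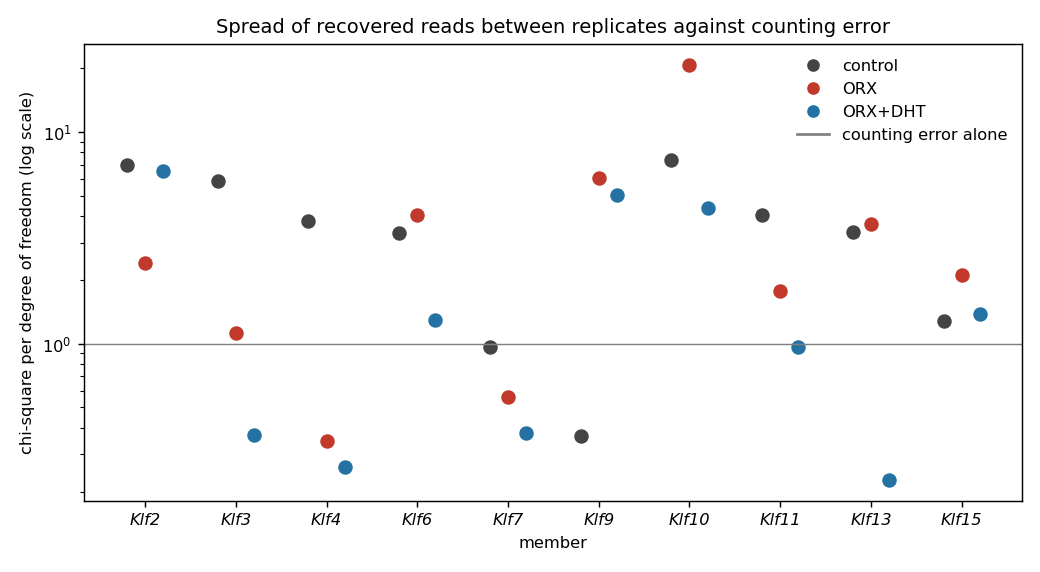
Chi-square per degree of freedom of recovered reads among the 3 replicates of a group (log scale), by gene and group; the line at 1 marks counting error alone. Klf10 in ORX is highest, at 20.7, and Klf13 in ORX+DHT lowest, at 0.227.

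The summed level of the 10 members was 809 ± 43.2 normalised counts in control muscle, 852 ± 15.3 after ORX and 786 ± 47.7 with DHT (SD, n = 3). Klf9 alone made up 40.3% to 53.4% of this sum. The ranges of the full sum overlapped, at 835 to 865 over the ORX libraries and 742.5 to 837 with DHT. Without Klf9 the sums were 405 ± 50.6, 474 ± 44.9 and 401 ± 18.6. The ORX range, 427 to 516, lay above the ORX+DHT range, 380 to 416, by a narrow gap, but overlapped the control range, 356 to 457. That gap depended on single members such as Klf10, which alone averaged 72.1 in ORX and 33.4 in ORX+DHT. Klf3 and Klf13 went the other way, from 31.1 to 42.5 and from 87.7 to 90.1.

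Genes that respond to the same hormones were examined as a list beside the members. Of 21 glucocorticoid- and steroid-responsive genes, 19 were tested; in ORX+DHT against ORX 2 rose (2.38% of all genes did) and 2 fell (1.7% of all genes), with a median log2 fold change of -0.044. Fkbp5 rose by 1.80 and Zbtb16, for a zinc finger repressor, by 1.11 on the log2 scale (BH-adjusted limma p 8.03e-06 and 1.74e-05). Nr3c1, the glucocorticoid receptor gene, fell from 182 ± 8.81 to 135 ± 15.6 normalised counts, and Tsc22d3, the glucocorticoid-induced leucine zipper gene, from 377 ± 15.9 to 294 ± 13.6 (SD, n = 3). The changes were -0.43 and -0.36 on the log2 scale (BH-adjusted limma p 0.038 and 0.0247). In the other 2 comparisons 0 of 19 were called.

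Fkbp5 and Zbtb16 were called in all 16 alternative fits, Tsc22d3 in 11 and Nr3c1 in 9. Nr3c1 lost its call without ORX replicate 1 or 2 or any single ORX+DHT replicate (BH-adjusted limma p 0.0591 to 0.173), with all 9 libraries in 1 fit (0.479) and with DESeq2 (0.14). Tsc22d3 lost it without ORX replicate 2 or ORX+DHT replicate 1 or 3 (0.101 to 0.143), with all 9 libraries (0.231) and with DESeq2 (0.0853).

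The list of 12 amino acid and lipid genes linked to KLF15 was tested in full. In DHT-treated against ORX muscle 1 of them rose (2.38% of all genes did) and 2 fell (1.7%), and the median log2 fold change was -0.0074. Of the 12, 6 had log2 fold changes above 0 and 6 below. Among uncalled amino acid genes, Prodh and Gpt had 0.44 and 0.20, and Gpt2 and Bckdha -0.40 and -0.25. Bckdhb, for a subunit of the branched-chain ketoacid dehydrogenase, stood at 57.9, 53.7 and 54.6 normalised counts in ORX and 26.3, 31.9 and 31.6 in ORX+DHT. All ORX libraries were above all ORX+DHT libraries, a log2 fold change of -0.87 (SE 0.17, BH-adjusted limma p 0.00452) that was called in all 15 alternative fits that tested it. Controls, at 36.2, 37.6 and 47.7, lay between.

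Bcat2, for the mitochondrial branched-chain aminotransferase and a known KLF15 target, stood at 99.1, 114 and 104 in ORX and 70.9, 61.9 and 78.1 in ORX+DHT. Its log2 fold change was -0.59 (SE 0.13, BH-adjusted limma p 0.0144), called in 11 of 16 alternative fits and lost without ORX replicate 2 or ORX+DHT replicate 1 or 2 (BH-adjusted limma p 0.0528 to 0.0953), with all 9 libraries in 1 fit (0.0887) and with DESeq2 (0.0719). Slc2a4, the gene of the insulin-responsive glucose transporter, rose from 888 ± 49.9 to 1118 ± 57.7 normalised counts (SD, n = 3), a log2 fold change of 0.33 (BH-adjusted limma p 0.0204), also called in 11 of 16. That call was lost without ORX replicate 1 or ORX+DHT replicate 1 or 3 (adjusted p 0.0557 to 0.127), with all 9 libraries in 1 fit (0.261) and with DESeq2 (0.0526). In the other 2 comparisons 0 of 12 were called.

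**Figure D5:**
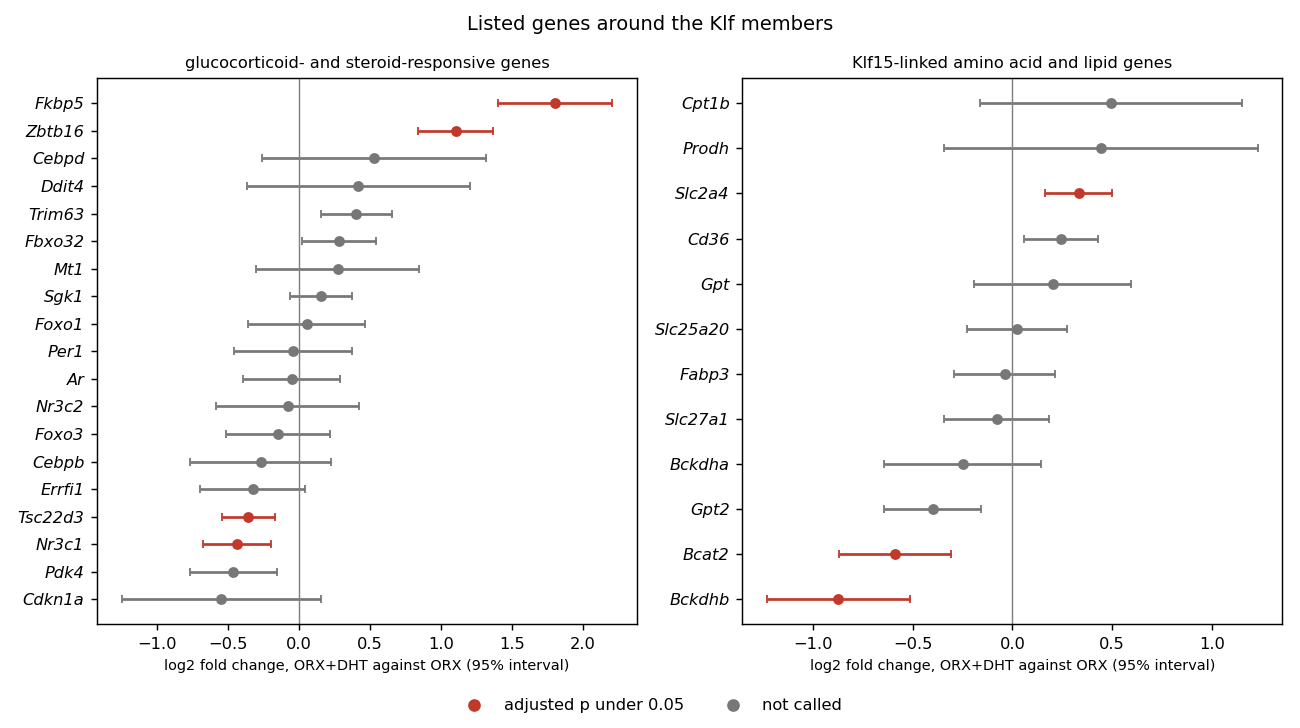
Log2 fold change in ORX+DHT against ORX with 95% limma intervals for 19 steroid-responsive genes (left) and 12 genes linked to KLF15 (right); red marks an adjusted p under 0.05. Fkbp5 and Zbtb16 lie at 1.80 and 1.11, and Bckdhb and Bcat2 at -0.87 and -0.59.

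Some markers of fibroblasts and of muscle fibres differed between the same groups. Of 7 fibroblast markers 2 fell in ORX+DHT (1.7% of all genes did), Lum and Col1a1, with log2 fold changes of -1.79 and -1.18 (BH-adjusted limma p 4.81e-06 and 2.89e-06). The other 5 were not called: Gsn and Pdgfra had 0.37 and 0.059, and Dcn, Dpt and Col3a1 had -0.051, -0.27 and -0.46. The summed level of the 7, to which the collagen genes Col1a1 and Col3a1 contributed 1682 and 1222 normalised counts on average in ORX, spanned 3266 to 4674 over the ORX libraries and 2408 to 3204 with DHT, with none at 0. Of 8 muscle fibre markers 3 rose (2.38% of all genes did), Mb, Myh1 and Acta1, and 0 fell. The uncalled Pvalb, Myh2 and Myh4 had log2 fold changes of -0.28, -0.15 and -0.083. Whether these shifts bear on Klf15, Bcat2 or Bckdhb was not tested.

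Klf2, Klf4, Klf6 and Klf10 are commonly induced together with immediate early genes, and Klf9, Klf10 and Klf15 have daily rhythms in many tissues. Of 14 immediate early genes, 8 were tested in ORX+DHT against ORX and 1 rose (2.38% of all genes did), Jun, by 0.53 (BH-adjusted limma p 0.0231). Its call was lost without ORX replicate 3 or ORX+DHT replicate 2 or 3 (adjusted p 0.088 to 0.115), with all 9 libraries in 1 fit (0.135) and with DESeq2 (0.0755). Of 15 clock genes, 13 were tested and 1 rose (2.38% of all genes did), Bhlhe41, a repressor of the clock. It went from 54.3 ± 4.96 to 115 ± 9.61 normalised counts (SD, n = 3), by 1.07 on the log2 scale (BH-adjusted limma p 6.33e-05). Dbp ranged from 30 to 115 within the ORX+DHT group alone. The time of day of sampling is not given in the sources used here.

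Of 12 genes for TGF-beta ligands, receptors and Smad proteins, the pathway upstream of Klf10 and Klf11, 11 were tested and 0 were called in any of the 3 comparisons. Between ORX+DHT and ORX, 9 of the 11 had log2 fold changes below 0, with a median of -0.13. There was 1 gene at an unadjusted p under 0.05, against 14.3% of all genes. That gene, named after its values were seen, was Ski, for a Smad corepressor, at -0.26 (BH-adjusted limma p 0.291).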

How the data were processed

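Libraries were polyA-selected and directional, per the labels' protocols. Per the submitters' processing notes, Trim Galore 0.6.7, HISAT2 2.2.1, featureCounts 2.0.1, DESeq2 1.36.0 and build GRCm38 were used; their roles and settings are not given in the sources used here. The authors deposited 2 tables of normalised counts of protein-coding genes, a signal in which each library's counts are divided by 1 factor. All values (100%) were whole multiples of 1 step per column within 0.001 reads, so reads were recovered. For control replicate 3 the step was close to 1, at 0.992. Sham columns were taken as the control group, the only one without orchiectomy, by replicate number; 0 columns were unmapped.

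Each table was tested separately; ORX+DHT against control, and all printed normalised counts, use 9 libraries rescaled together by median-of-ratios factors from 10885 of the 14300 shared genes. Fits used limma 3.58.1 (R 4.3.3; trend) on log2(value + 1), which understates changes of low genes, for genes with a mean of at least 10, Benjamini-Hochberg adjusted over all genes tested; calls required an adjusted p below 0.05. Fits were tested on simulated data. The 95% intervals are limma's and rest on the spread between libraries; the spread of reads was set against counting error. All 10 members are named; list genes are named where called, at most 6 per list and comparison, or as examples. Genes alike in pattern were to be named for called members only, and 0 were called. Members and lists were chosen with earlier results of these data known. Positions and exonic lengths are from GENCODE M21 (GRCm38). Alternatives included edgeR 4.0.16 (366 genes called in ORX+DHT against ORX) and DESeq2 1.42.0 (221) on recovered reads.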

Additional observations from a re-analysis of the deposited data

How the results depend on the processing

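No member was called in ORX against control or ORX+DHT against control under any alternative run, among them a pseudocount of 0.1 or 10, TMM, quantile normalisation, edgeR and DESeq2. In ORX+DHT against ORX, 0 to 1 members were called across the 6 fits that each left out 1 library, and 0 under every other alternative except the replicate block. Replicate numbers were not used as pairs in the main fits. Same-numbered ORX and ORX+DHT libraries deviated together with r of 0.0627, 0.0611 and 0.151 across 8631 genes. Differently numbered ones had r of -0.0872 to 0.0248. Whether the numbers pair the samples cannot be told from these values. With the replicate number as a block, 2 members (Klf10 and Klf2) and 571 genes were called there instead of 0 and 358. A minimum mean of 50 left 5, 5 and 3 members to test.

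Counts of all genes called depended on the fit. In ORX against control 5 were called, 16 with no filter, 23 with all 9 libraries in 1 fit, 28 with DESeq2 and 1 to 51 with a library left out. For ORX+DHT against ORX 358 became 123 with all 9 libraries, 221 with DESeq2 and 223 to 350 with a library left out. For ORX+DHT against control 3 became 6 after quantile normalisation, 11 with all 9 libraries, 13 with DESeq2 and 0 to 66 with a library left out; 0 was reached by limma without ORX+DHT replicate 3 (318 at an unadjusted p under 0.05), and 66 without control replicate 1. Higher genes made up 58.4% of calls in ORX+DHT against ORX and 49.2% after quantile normalisation. The cause was not tested.

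Some uncalled members changed sign between fits, and not only those near 0. In the main fits Klf3 and Klf11 stood at 0.36 and -0.35 in ORX+DHT against control, and Klf11 and Klf2 at 0.24 and 0.23 in ORX against control. Klf9 in ORX+DHT against ORX was -0.040 after quantile normalisation. With a library left out, log2 fold changes in ORX against control ran from -0.27 to 0.53 for Klf2, -0.52 to 0.18 for Klf3, -0.069 to 0.15 for Klf7, -0.28 to 0.59 for Klf11 and -0.080 to 0.24 for Klf13. Between ORX+DHT and ORX they ran from -0.18 to 0.10 for Klf6, -0.041 to 0.12 for Klf9 and -0.032 to 0.20 for Klf13. Between ORX+DHT and control they ran from -0.071 to 0.63 for Klf3, -0.011 to 0.45 for Klf4, -0.22 to 0.0044 for Klf7, -0.14 to 0.016 for Klf9, -0.87 to 0.0017 for Klf11 and -0.027 to 0.30 for Klf13. Low depth limits Klf11 most, at 5 to 21 reads per library.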

Other observations

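Of 16 other Klf and Sp genes, 10 were listed in both tables, and 5 entered the ORX against control test and 4 each other comparison, with 0 called in each. Sp1 and Sp3, widely expressed relatives of the KLFs that bind the same GC boxes, had log2 fold changes of -0.25 and 0.021 in ORX+DHT against ORX (BH-adjusted limma p 0.672 and 0.977). Klf5, Klf8, Klf14, Klf16 and Sp7 lay below the minimum mean. Klf5 stood at 18.7 normalised counts in control replicate 1 and at 1.93 to 6.62 in the other 8 libraries.

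All 12 genes for KLF corepressors, coactivators and ubiquitin ligases were tested, and 0 were called in any comparison. Ctbp1, whose product is the corepressor recruited by KLF3, stood at 360, 357 and 352 normalised counts in ORX and 307, 301 and 293 in ORX+DHT, with no overlap. Its log2 fold change was -0.25 (BH-adjusted limma p 0.147). Kat2b, for an acetyltransferase, had -0.28 (BH-adjusted limma p 0.209), and its groups did not overlap either, nor did those of Wwp1, for a ubiquitin ligase, at -0.15 (0.443). Groups that did not overlap were thus found for 3 of 12 genes, against 19.5% of all genes.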
